A study of Homo sapiens with 6 samples.

Results

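The genes described here are 43 rows of a table of 46287, chosen by name as the regulators of the antioxidant factor NRF2, the glutathione and thioredoxin systems, the enzymes that supply NADPH, and the aldo-keto reductases. RNA was sequenced from HaCat cells, a keratinocyte line from human epidermis that became immortal spontaneously, in 3 libraries of wild-type controls and 3 libraries of HaCat cells in which CRISPR/Cas9 had knocked out SDR42E1 on both alleles, in a study of a gene proposed to affect vitamin D levels. Both groups grew under the same conditions, in DMEM with high glucose, glutamine, pyruvate and serum, and were harvested before confluence. The labels call the replicates biological and name neither the number of edited clones nor separate cultures, so the p-values speak only of the spread among these libraries. All 43 genes had a row, and 41 passed the filter on low counts and were tested.

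NRF2, encoded by NFE2L2, is a transcription factor that KEAP1 normally marks for degradation. When reactive oxygen or electrophiles modify KEAP1, NRF2 accumulates, pairs with small MAF proteins and binds antioxidant response elements in front of detoxification genes. Glutathione and thioredoxin then pass electrons from NADPH to peroxides and oxidized proteins, and aldo-keto reductases use NADPH to reduce aldehydes, ketones and steroids. In skin these systems meet oxidants from light, air and chemicals.

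Library totals ran from 11504473 to 16928201 counts. Levels are CPM (a count relative to the size of its library) scaled by TMM, which adjusts for library composition, and fold changes are knockout over control. SDR42E1, the targeted gene, was at 46.8, 47.6 and 48.8 CPM in the control libraries and 23.2, 20.1 and 20.7 CPM in the knockout libraries. Its RNA was thus lower in each knockout library and still present (log2 fold change -1.16, SE 0.08, adjusted p = 2.69e-14). Adjusted p-values are from edgeR's quasi-likelihood test over 12293 genes with Benjamini-Hochberg adjustment, and passing means under 0.05. As a check of the label, the 10 keratinocyte markers summed to between 8790 and 9390 CPM in control and between 10800 and 11300 CPM in knockout libraries. Marker sums of fibroblasts (6 genes), melanocytes (5), endothelial cells (4) and immune cells (5) were at most 24.9 CPM in any library, and DCN, TYR and CD3E had 0 counts in all 6. In bulk RNA, fewer cells of a type and less RNA per cell cannot be told apart, and the part of marker changes in the results below was not tested. The keratinocyte markers moved both ways: 7 rose, among them KRT6A by 2.39-fold (log2 1.26, SE 0.05, adjusted p = 4.89e-23), KRT5 was 1.58-fold lower (log2 -0.66, SE 0.05, adjusted p = 8.98e-15), and KRT14 and DSG3 did not pass (log2 -0.07 and 0.03).

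The gene set held changes in both directions in the knockout cells, with more genes lower than higher. Of the 41 tested genes, 10 were higher and 17 lower past the threshold, and 14 did not pass. Over all genes tested 24.6% were higher, 25.8% were lower and 50.4% passed in either direction, against 24.4%, 41.5% and 65.9% of the 41. The median log2 fold change was -0.13 for the 41 genes and -0.00 for all genes, and the median size of change was 0.20 against 0.23. Only 6 of the 41 passed with a change of at least 1.5-fold, 14.6% against a background of 15.4%. These were TXNIP, GSTM3 and AKR1C1, higher in the knockout (background 4.99%), and AKR1B10, AKR1C3 and CAT, lower (background 10.4%). Without knockout replicate 3, CAT fell by 0.58 on the log2 scale, just under 1.5-fold, and the count was 5. The libraries of the groups did not overlap for 32 of the 41 genes, where 56.5% of all genes were so separated. Scaling mattered for genes near the threshold: KEAP1, SLC7A11, GSS, GPX1 and AKR1C2 also passed as lower with upper-quartile scaling, at adjusted p between 0.0162 and 0.0429, and with TMM factors from genes outside 5 chromosomes.

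**Figure D1:**
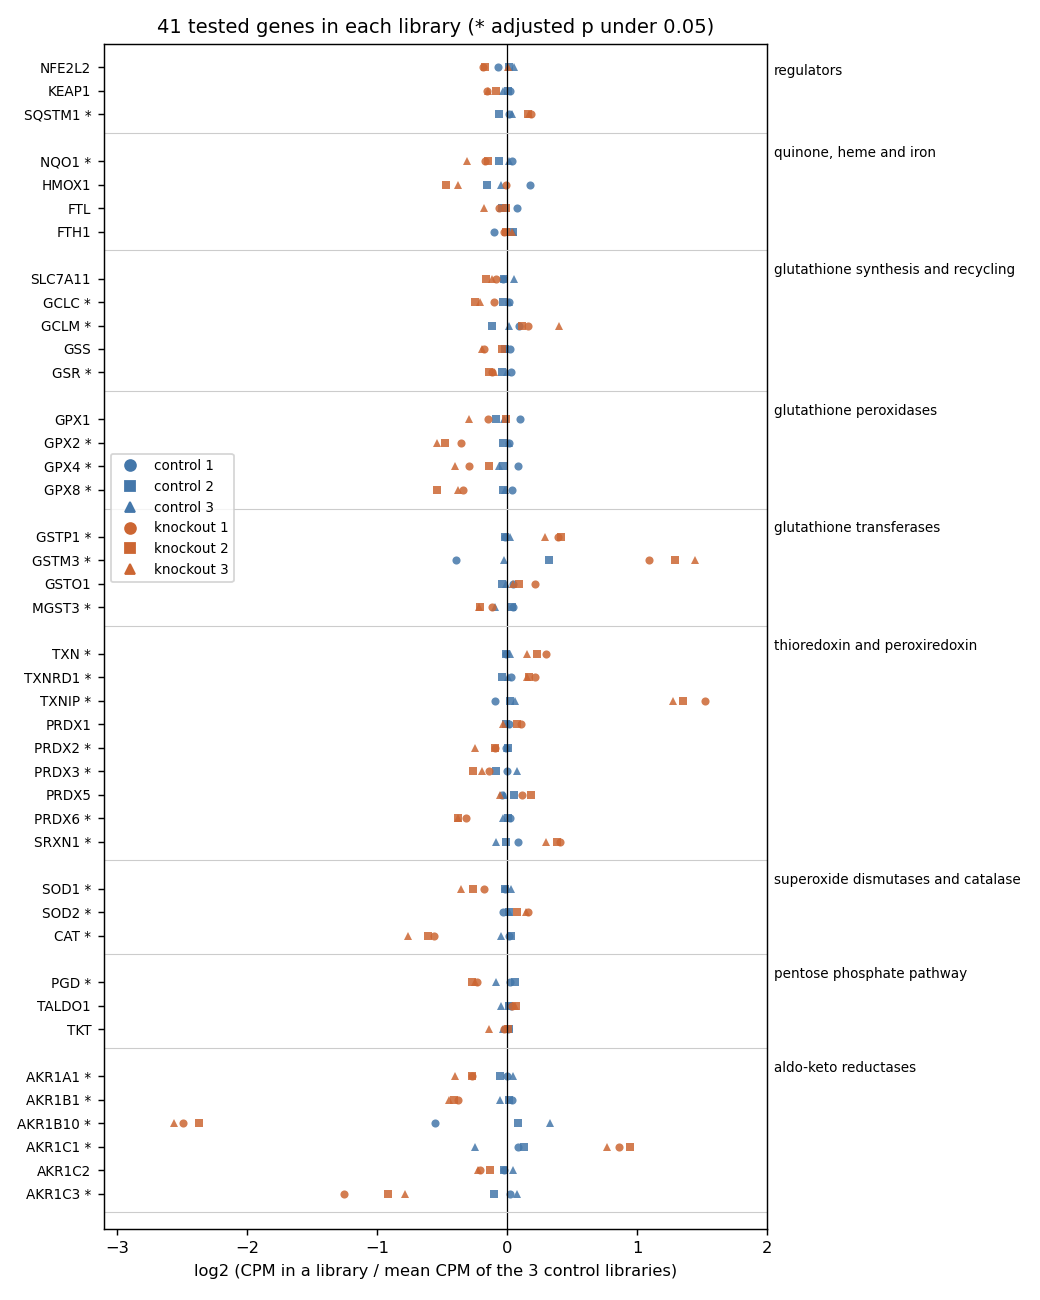
Each point is 1 library's CPM over the mean of the 3 control libraries, on a log2 scale, for the 41 tested genes grouped by role; colour gives the group, shape the replicate, and an asterisk an adjusted p under 0.05. Most genes lie near 0 in both groups, while TXNIP, GSTM3 and AKR1C1 lie to the right and AKR1B10, AKR1C3 and CAT to the left in all 3 knockout libraries.

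These are mostly abundant genes, for which small changes can pass. The median of their mean log2 CPM was 7.06, against 5.10 over all genes tested. From a mean log2 CPM of 6 upward, a limit chosen after the values were seen, 22 of 34 of these genes passed (64.7%) against 62.0% of 3877 genes. Lower calls made up 41.2% of these 34 genes and 23.9% of the 3877. Higher calls made up 23.5% and 38.1%. The difference between the 34 genes and the rest was not tested. Of the genes changed at least 1.5-fold, GSTM3, AKR1B10, AKR1C3 and AKR1C1 were scarcer, with a mean log2 CPM of 2.19, 2.39, 2.80 and 3.62. TXNIP and CAT were at 7.06 and 6.83.

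The 3 regulators were close to their control levels. NFE2L2 itself was at 83.1, 88.1 and 90.8 CPM in control and 76.9, 77.8 and 88.0 CPM in knockout libraries. These ranges overlapped, with a log2 fold change of -0.11 (SE 0.06, adjusted p = 0.136). KEAP1, the adaptor that brings NRF2 to the CUL3 ubiquitin ligase, was at 78.7, 77.5 and 75.7 CPM in control and 69.7, 72.8 and 69.7 CPM in knockout libraries. Its knockout values all lay under its control values, but the difference did not pass (log2 -0.13, SE 0.06, adjusted p = 0.0742). SQSTM1 encodes p62, an autophagy receptor that binds KEAP1. It rose from 258, 245 and 262 CPM to 289, 285 and 286 CPM, a step of 1.12-fold (log2 0.17, SE 0.05, adjusted p = 0.00273). NFE2L2 passed without knockout replicate 3 (log2 -0.17, adjusted p = 0.0255) and with TMM factors from genes outside chromosomes 1, 10, 13, 16 and 17 (log2 -0.15, adjusted p = 0.0437). The RNA level does not show NRF2 protein, which is controlled mainly by its turnover.

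Of the 4 genes for quinone, heme and iron handling, 1 fell (25%) and 3 did not pass, against 25.8% lower over all genes. NQO1, a quinone reductase and standard NRF2 target, went from 295, 276 and 291 CPM to 256, 260 and 232 CPM. The knockout libraries all lay lower (log2 -0.20, SE 0.05, adjusted p = 0.000773). NQO1 lies on the long arm of chromosome 16, as does SDR42E1, and 68 of the 83 well-measured genes within 5 Mb of it were also below 0, with a median of -0.24. HMOX1, the inducible heme oxygenase, was scarce in every library. Its 6.19, 4.92 and 5.28 CPM in control and 5.45, 3.95 and 4.20 CPM in knockout libraries overlapped (log2 -0.27, SE 0.20, adjusted p = 0.280). The ferritin chains that store iron were abundant and close between groups. FTH1 was at 1138 ± 66.5 CPM in control and 1140 ± 25.4 CPM in knockout libraries (SD, n = 3 each; adjusted p = 0.975). FTL was at 257, 238 and 235 CPM in control and 234, 243 and 216 CPM in knockout libraries, which overlapped (log2 -0.08, SE 0.05, adjusted p = 0.213). The heavy chain FTH1 held 82.3% ± 1.61 of the summed ferritin counts in control and 83.2% ± 1.10 in knockout libraries (SD, n = 3; exact permutation test, two-sided, p = 0.600). Ferritin genes have processed pseudogenes, and the counting of shared reads is not known.

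In glutathione synthesis and recycling, 1 gene rose (20%), 2 fell (40%) and 2 did not pass. Of all genes tested 24.6% rose and 25.8% fell. GCLC and GCLM encode the catalytic and the modifier subunit of glutamate-cysteine ligase, which makes the first bond of glutathione, and they moved in opposite directions. GCLC went from 154, 149 and 154 CPM to 142, 128 and 132 CPM (log2 -0.18, SE 0.05, adjusted p = 0.00309). GCLM went from 123, 107 and 117 CPM to 130, 125 and 153 CPM (log2 0.23, SE 0.07, adjusted p = 0.00996). For each of the subunits the groups did not overlap, although the highest control library of GCLM lay close to the lowest knockout library. GCLM had a log2 fold change of 0.15 without knockout replicate 3, the library with its highest level. The ratio of GCLC to GCLM counts within a library, looked at after the values were seen, was 1.25, 1.40 and 1.32 in control and 1.10, 1.03 and 0.862 in knockout libraries. This ratio does not depend on scaling, and it was lower in each knockout library. GSR, which returns oxidized glutathione to its reduced form, went from 324, 308 and 317 CPM to 293, 288 and 295 CPM (log2 -0.12, SE 0.05, adjusted p = 0.0356). This was a small step, and GSR passed in 1 of the 6 fits that left out a library: adjusted p was 0.119, 0.0529 and 0.104 without control replicates 1, 2 and 3, and 0.0681 and 0.101 without knockout replicates 1 and 2. The cystine importer SLC7A11 (log2 -0.12, adjusted p = 0.0537) and glutathione synthetase GSS (log2 -0.13, adjusted p = 0.0589) did not pass, although the knockout libraries lay lower for each. GSS passed without knockout replicate 2 (log2 -0.18, adjusted p = 0.0178).

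Glutathione peroxidases, which reduce peroxides with glutathione, included no higher call. Of 5 genes 4 were tested, of which 3 fell (75%) and GPX1 did not pass. Of all genes tested 25.8% fell and 24.6% rose. GPX2, the epithelial form, had 101, 97.6 and 101 CPM in control libraries and 77.9, 71.5 and 68.7 CPM in knockout libraries. These levels were 1.37-fold lower in the knockout (log2 -0.46, SE 0.06, adjusted p = 5.62e-08). GPX8, a form of the endoplasmic reticulum, went from 36.9, 35.2 and 35.5 CPM to 28.4, 24.8 and 27.5 CPM (log2 -0.42, SE 0.09, adjusted p = 9.25e-05). GPX4, which reduces lipid peroxides in membranes and protects from ferroptosis, went from 189, 174 and 170 CPM to 145, 161 and 134 CPM (log2 -0.27, SE 0.06, adjusted p = 0.000288). For GPX2, GPX8 and GPX4 each knockout library lay under each control library. GPX1 overlapped between groups (log2 -0.14, SE 0.07, adjusted p = 0.0767), and passed without control replicate 2 (log2 -0.18, adjusted p = 0.0405) and without knockout replicate 2 (log2 -0.21, adjusted p = 0.0122). The secreted GPX3 had 1, 5 and 6 counts in control and 11, 7 and 6 counts in knockout libraries and was left out by the filter.

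Glutathione transferases, which join glutathione to electrophiles, showed 2 rises (50%) and 1 fall (25%) of 4 tested, against 24.6% and 25.8% of all genes. GSTP1, the pi-class enzyme, rose from 794, 792 and 815 CPM to 1049, 1065 and 983 CPM. This was 1.29-fold, and the groups lay well apart (log2 0.37, SE 0.05, adjusted p = 1.56e-08). GSTM3, a mu-class enzyme, was scarce, with 28, 57 and 32 counts in control and 65, 85 and 82 in knockout libraries. Its level rose 2.40-fold, from 2.01, 3.30 and 2.60 CPM to 5.62, 6.46 and 7.17 CPM (log2 1.27, SE 0.22, adjusted p = 1.24e-05). The membrane enzyme MGST3 went from 74.8, 74.5 and 68.2 CPM to 66.8, 62.9 and 62.5 CPM (log2 -0.18, SE 0.06, adjusted p = 0.0177). It did not pass without control replicates 1 and 2 (adjusted p = 0.0648 and 0.0910) or knockout replicates 2 and 3 (adjusted p = 0.0597 and 0.0526). It lies on the long arm of chromosome 1, where 40 of 45 genes within 5 Mb were below 0 (median -0.46), so MGST3 fell by less than that median. GSTO1 stood at 0.12 on the log2 scale (adjusted p = 0.0957), and passed at 0.16 without knockout replicate 3 (adjusted p = 0.0349). MGST1 was listed at 0 counts in all 6 libraries. MGST1 is common in epithelial cells, and whether this row of the table received its reads is not known, so the 0 is not read as a level. If it did, a count of 0 allows up to 3 counts, or 0.173 to 0.262 CPM depending on the library, for counting error only.

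The thioredoxin system held the smallest adjusted p among the 41 genes, that of TXNIP. TXNIP binds and inhibits thioredoxin and limits glucose uptake. Its levels were 69.8, 75.7 and 77.4 CPM in control and 213, 190 and 180 CPM in knockout libraries. The lowest knockout library was far above the highest control library, and the rise was 2.61-fold (log2 1.39, SE 0.06, adjusted p = 4.00e-19). TXNIP lies on the long arm of chromosome 1, and 45 of the 47 well-measured genes within 5 Mb were below 0, with a median log2 fold change of -0.36. The rise of TXNIP therefore ran against its chromosomal surroundings.

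Thioredoxin itself, its reductase and sulfiredoxin also rose, by less. SRXN1, sulfiredoxin, which restores peroxiredoxins after overoxidation, went from 175, 164 and 155 CPM to 218, 215 and 203 CPM (log2 0.36, SE 0.05, adjusted p = 2.14e-07). TXN, thioredoxin, went from 578, 578 and 590 CPM to 717, 684 and 648 CPM (log2 0.23, SE 0.05, adjusted p = 6.98e-05). TXNRD1, the selenoenzyme that recharges thioredoxin from NADPH, went from 208, 199 and 205 CPM to 237, 229 and 227 CPM (log2 0.18, SE 0.05, adjusted p = 0.00186). The groups did not overlap for any of these genes. Because TXNIP rose more than TXN, the count ratio of TXNIP to TXN went from 0.128 ± 0.00596 in control to 0.284 ± 0.0112 in knockout libraries (SD, n = 3), a ratio chosen after the values were seen.

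Of the 9 thioredoxin and peroxiredoxin genes 4 rose (44.4%) and 3 fell (33.3%), against 24.6% and 25.8% of all genes. The peroxiredoxins, abundant peroxidases that thioredoxin recharges, included 3 falls and 2 genes that did not pass. PRDX6, which works with glutathione instead, went from 353, 351 and 341 CPM to 280, 269 and 269 CPM (log2 -0.35, SE 0.05, adjusted p = 4.95e-08). It lies on the long arm of chromosome 1, where 22 of 25 genes within 5 Mb were below 0, with a median of -0.41, so its value was near that of its surroundings. The mitochondrial PRDX3 had a log2 fold change of -0.20 (SE 0.05, adjusted p = 0.00165), and its neighbours on chromosome 10 a median of -0.19 within 5 Mb, -0.20 within 10 Mb and -0.01 within 2 Mb. PRDX2 had one of -0.14 (adjusted p = 0.0175) and did not pass without control replicates 2 and 3 or knockout replicate 3 (adjusted p = 0.0645, 0.0514 and 0.129). PRDX1 was at 1144 ± 9.91 CPM in control and 1185 ± 60.7 CPM in knockout libraries (SD, n = 3; adjusted p = 0.360). PRDX5 stood at 0.09 on the log2 scale (adjusted p = 0.178). Both passed without knockout replicate 3, PRDX1 at 0.10 (adjusted p = 0.0262) and PRDX5 at 0.15 (adjusted p = 0.00774).

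Enzymes that act on superoxide and hydrogen peroxide without glutathione or thioredoxin changed in both directions. CAT, catalase of the peroxisome, went from 139, 141 and 134 CPM to 93.6, 90.3 and 81.2 CPM. It was 1.56-fold lower in the knockout (log2 -0.64, SE 0.06, adjusted p = 5.16e-12), while genes within 5 Mb of it on chromosome 11 had a median of 0.10. SOD1, the cytosolic superoxide dismutase, went from 152, 153 and 157 CPM to 136, 128 and 120 CPM (log2 -0.26, SE 0.05, adjusted p = 6.74e-05). SOD2, the mitochondrial form, went from 137, 141 and 141 CPM to 156, 147 and 154 CPM (log2 0.13, SE 0.05, adjusted p = 0.0344). For CAT, SOD1 and SOD2 the groups did not overlap. The call for SOD2 was lost without control replicates 1, 2 and 3 (adjusted p = 0.102, 0.0738 and 0.0704) and without knockout replicates 1 and 3 (adjusted p = 0.0861 and 0.0575). Upper-quartile scaling also ended it (adjusted p = 0.107), as did TMM factors from genes outside 5 chromosomes with shifted stretches (adjusted p = 0.147).

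Of 3 enzymes of the pentose phosphate pathway, which yields NADPH, 1 fell (33.3%), against 25.8% of all genes. PGD, which makes NADPH from phosphogluconate, went from 111, 114 and 103 CPM to 93.3, 90.9 and 92.5 CPM (log2 -0.25, SE 0.06, adjusted p = 0.000315). TALDO1 and TKT, enzymes of its non-oxidative branch, did not pass. TALDO1 was at 192, 189 and 181 CPM in control and 193, 196 and 195 CPM in knockout libraries, where the lowest knockout and highest control values nearly met (log2 0.06, SE 0.05, adjusted p = 0.345). TKT was at 399, 400.3 and 388 CPM in control and 389, 399 and 359 CPM in knockout libraries, and these overlapped (log2 -0.05, SE 0.05, adjusted p = 0.408).

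The aldo-keto reductases held 3 of the 6 genes changed at least 1.5-fold, 50% of this role against 15.4% of all genes. Reads of AKR1C1 and AKR1C3 among these may be shared, and their sum with AKR1C2 had a log2 fold change of -0.02. Of the 6 in the set 4 fell (66.7%), 1 rose (16.7%) and AKR1C2 did not pass, against 25.8% and 24.6% of all genes. AKR1B10, a reductase of retinal and lipid aldehydes and a known NRF2 target, changed most of the 41 genes. It had 78, 151 and 128 counts in control and 17, 21 and 16 counts in knockout libraries. Its level went from 5.61, 8.74 and 10.4 CPM to 1.47, 1.59 and 1.40 CPM, with the control libraries spread widely and the knockout libraries close together. The fall was 5.49-fold (log2 -2.46, SE 0.25, adjusted p = 1.35e-10). AKR1B15, its nearest relative beside it on chromosome 7, had 0 counts in 5 libraries and 1 in knockout replicate 2. AKR1B1, aldose reductase, which turns glucose into sorbitol, went from 92.5, 90.9 and 86.5 CPM to 69.2, 68.0 and 66.0 CPM (log2 -0.41, SE 0.06, adjusted p = 4.14e-07). AKR1A1, aldehyde reductase, had a log2 fold change of -0.31 (SE 0.06, adjusted p = 4.93e-05). Genes within 5 Mb of AKR1B10 had a median of 0.02, and those around AKR1A1 0.14.

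On GRCh38 the 6 genes lie at chr1:145992435-145996600 (TXNIP), chr1:109733932-109741038 (GSTM3), chr10:4963253-4983283 (AKR1C1), chr10:5035354-5107686 (AKR1C3), chr7:134527592-134541408 (AKR1B10) and chr11:34438925-34472062 (CAT), each span being the whole gene.

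**Figure D2:**
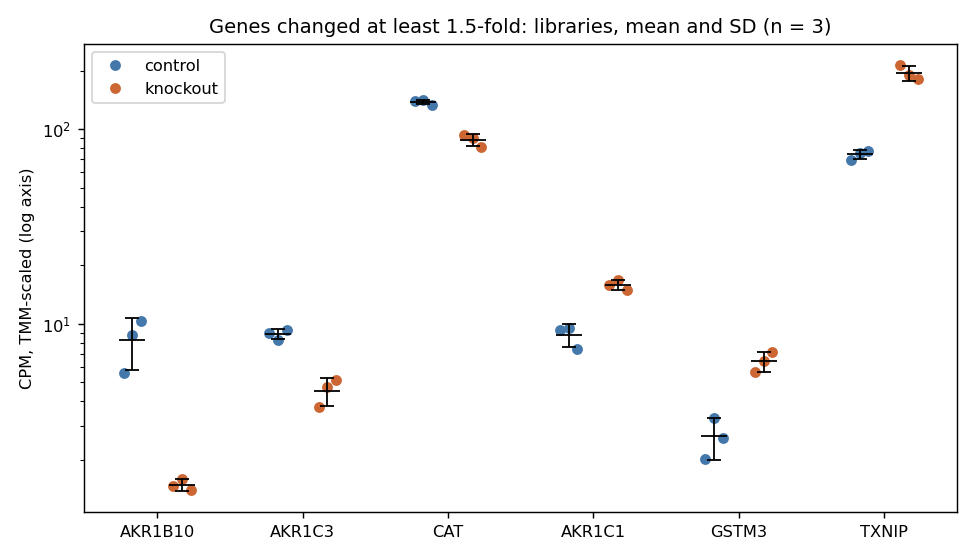
TMM-scaled CPM (log axis) of the 6 genes that passed with a change of at least 1.5-fold; each point is 1 library, and the horizontal marks and bars are the mean and SD of 3 libraries. The control and knockout libraries of each gene do not overlap, and AKR1B10 runs from at least 5.61 CPM in control to at most 1.59 CPM in knockout libraries.

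AKR1C1, AKR1C2 and AKR1C3 lie side by side on chromosome 10 and reduce steroids and prostaglandins, AKR1C1 acting as a 20-alpha, AKR1C2 as a 3-alpha and AKR1C3 as a 17-beta hydroxysteroid dehydrogenase. Their sequences are shown because they are so alike that reads may be given to the wrong gene. In the transcripts of GENCODE release 29, each coding region has 972 bases, and AKR1C1 and AKR1C2 differ at 19 of them (98.0% identity), AKR1C1 and AKR1C3 at 83 (91.5%) and AKR1C2 and AKR1C3 at 87 (91.0%). Of the 873 windows of 100 bases in the AKR1C1 coding region, 19.1% occur unchanged in the AKR1C2 transcript and 2.18% in that of AKR1C3. Read length is not known here. The 90 bases of the coding region with the most differences, bases 73 to 162 counted from the first base of the start codon, are given below 5′ to 3′, with capitals at the 19 places where the 3 genes are not all the same.
AKR1C1: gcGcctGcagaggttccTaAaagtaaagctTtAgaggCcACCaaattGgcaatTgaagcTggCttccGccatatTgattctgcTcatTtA
AKR1C2: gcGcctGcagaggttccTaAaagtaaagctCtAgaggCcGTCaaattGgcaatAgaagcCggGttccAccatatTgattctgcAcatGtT
AKR1C3: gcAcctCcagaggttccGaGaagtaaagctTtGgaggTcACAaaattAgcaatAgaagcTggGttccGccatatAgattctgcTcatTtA

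The 3 genes differed in direction while their sum stayed close to the control level. AKR1C1 rose from 9.28, 9.55 and 7.39 CPM to 15.9, 16.9 and 14.9 CPM, or 1.81-fold (log2 0.85, SE 0.13, adjusted p = 1.23e-06). AKR1C3 fell from 8.99, 8.27 and 9.34 CPM to 3.72, 4.71 and 5.16 CPM, or 1.95-fold (log2 -0.96, SE 0.18, adjusted p = 2.24e-05). AKR1C2 held more counts than either in every library. It was at 27.1, 27.1 and 28.5 CPM in control and 23.9, 25.1 and 23.6 CPM in knockout libraries, lower in each but not past the threshold (log2 -0.18, SE 0.09, adjusted p = 0.0815). With upper-quartile scaling it passed (log2 -0.21, adjusted p = 0.0429), as it did with TMM factors from genes outside the 5 chromosomes (log2 -0.22, adjusted p = 0.0349). Summed to 1 row before the fit, the 3 genes were at 45.4, 44.9 and 45.2 CPM in control and 43.5, 46.7 and 43.6 CPM in knockout libraries. The sum had a log2 fold change of -0.02 (SE 0.07, adjusted p = 0.869), and the ranges overlapped.

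Within the summed counts, AKR1C1 held 20.4%, 21.3% and 16.3% in control and 36.6%, 36.1% and 34.1% in knockout libraries. AKR1C3 held 19.8%, 18.4% and 20.7% in control and 8.55%, 10.1% and 11.8% in knockout libraries. AKR1C2 held 61.0% ± 1.75 and 54.3% ± 0.542 (SD, n = 3). For each of the 3 genes the shares of the groups did not overlap, and the exact permutation test gave p = 0.1 (two-sided), the smallest that 3 against 3 libraries allow. These 4 share tests, with ferritin, were not adjusted further, since none could pass. Such shares do not depend on scaling, but they do depend on how the counting treated reads common to these genes. The part of read sharing in the opposite values was not tested.

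**Figure D3:**
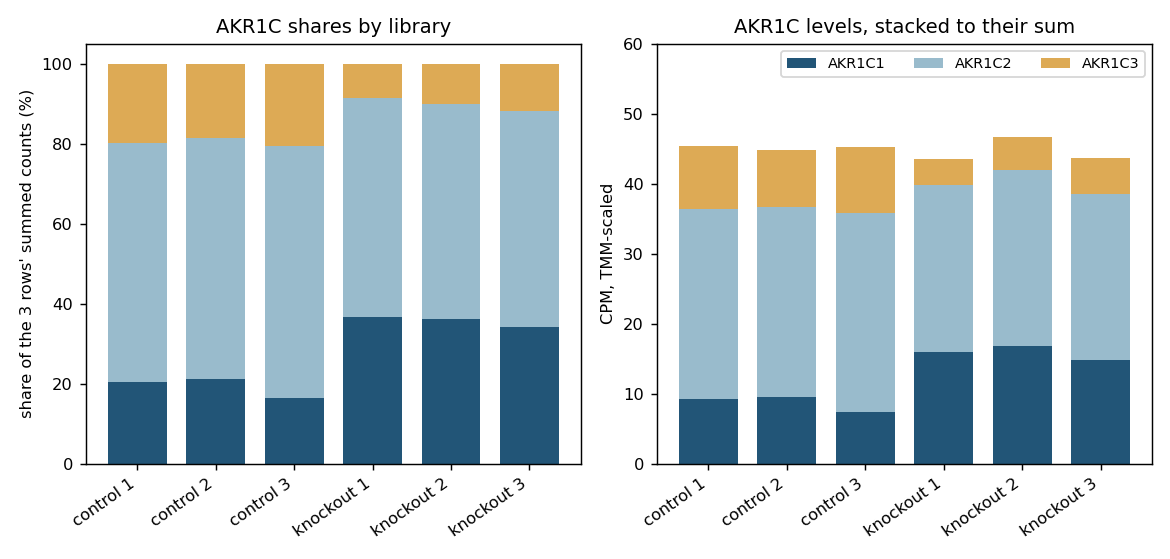
Left, the share (%) of AKR1C1, AKR1C2 and AKR1C3 in their summed counts in each library; right, their TMM-scaled CPM stacked to the sum. The AKR1C1 share is 16.3% to 21.3% in control and 34.1% to 36.6% in knockout libraries, while the stacked height stays between 43.5 and 46.7 CPM.

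Chromosomal surroundings were set beside each gene because stretches of chromosomes held many lower genes, and fewer gene copies and less transcription cannot be told apart from RNA. For each gene the median log2 fold change was taken over tested genes within 5 Mb whose mean log2 CPM reached 2, leaving out the 43 genes themselves. This median was -0.2 or lower for 4 of the 41 genes, NQO1, MGST3, PRDX6 and TXNIP. Of the 37 others 23 passed, 9 higher and 14 lower, with a median log2 fold change of -0.12. Over all genes tested, such stretches included, 50.4% passed, 24.6% higher and 25.8% lower. From a mean log2 CPM of 6 upward 62.0% of all genes passed. How many of all genes had a neighbour median of -0.2 or lower was not computed. NQO1, PRDX6 and PRDX3 differed from their surroundings by 0.04, 0.05 and -0.00, and MGST3, which fell by less than its neighbours' median, by 0.28. GSS and AKR1C2, which passed as lower only in some alternatives, differed by -0.00 and -0.03. TXNIP differed by 1.75, GSTM3 by 1.20, AKR1C1 by 1.01, CAT by -0.74, AKR1C3 by -0.81 and AKR1B10 by -2.47. The latter genes thus had values unlike the median of their neighbours. For AKR1C1 and AKR1C3 that median left out each other and AKR1C2, and the split of reads among them is uncertain. Their sum with AKR1C2 was at -0.02, against a neighbour median of -0.15. The falls of NQO1 and PRDX6 were of the size seen around them, as was that of PRDX3 with the 5 and 10 Mb windows but not with 2 Mb.

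**Figure D4:**
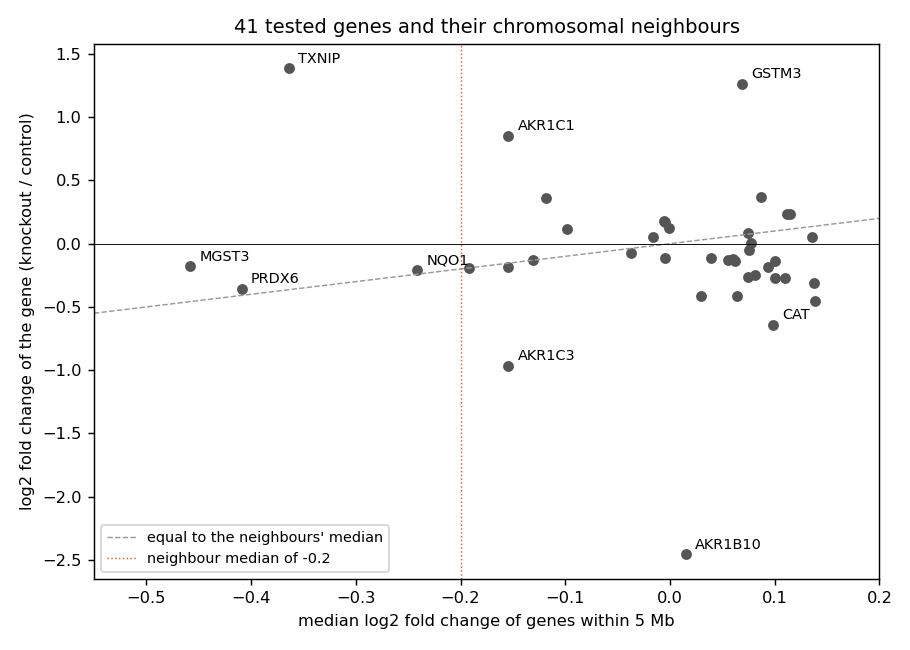
Log2 fold change of each of the 41 tested genes (vertical axis) against the median of well-measured genes within 5 Mb (horizontal axis); the dashed line marks equality and the dotted line a neighbour median of -0.2. NQO1 and PRDX6 lie near the dashed line, and TXNIP at 1.39 lies far above it although its neighbours have a median of -0.36.

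The upstream sequence of these genes was searched for TGACNNNGC, the core of the antioxidant response element, on both strands of the 250 bases before each gene start in RefSeq's table (GRCh38.p14). Of the 43 genes 34 were found there, often with several starts, and 7 held a match at 1 start or more: GSTP1, GPX2, PGD, TXNRD1, GCLM, KEAP1 and GSTO1. Over all 35116 starts of the table, 10.9% held a match. The shares are not on the same base, since a gene with several starts has several chances. The 6 with the smallest adjusted p are shown as the first match in a window in capitals with 10 bases on either side, 5′ to 3′ on the gene's strand. A match written as the reverse complement starts with GC. The core can overlap an AP-1 site. GENCODE exons on either strand cover 217 of the 250 bases for GSTP1, 160 for GPX2, 125 for KEAP1, 26 for GCLM and 20 for PGD. The matches shown for GSTP1, GPX2, PGD, KEAP1 and the other TXNRD1 start lie within the GENCODE span of the gene. TXNRD1 had a match at each of 2 starts and both are shown. KEAP1 held a second match, GCTTAGTCA, beginning 31 bases before the start, which is not drawn out below.
GSTP1, chr11:67583736-67583764, plus strand: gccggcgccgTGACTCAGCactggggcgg
GPX2, chr14:64942849-64942877, minus strand: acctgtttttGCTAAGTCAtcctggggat
PGD, chr1:10398853-10398881, plus strand: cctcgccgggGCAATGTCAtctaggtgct
TXNRD1, chr12:104215670-104215698, plus strand: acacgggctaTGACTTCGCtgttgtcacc
TXNRD1, other start, chr12:104286920-104286948, plus strand: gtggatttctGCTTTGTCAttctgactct
GCLM, chr1:93909446-93909474, minus strand: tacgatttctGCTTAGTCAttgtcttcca
KEAP1, chr19:10502807-10502835, minus strand: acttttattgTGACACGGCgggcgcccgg

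Genes with such a match did not move together. GSTP1, GCLM and TXNRD1 rose, GPX2 and PGD fell, and KEAP1 and GSTO1 did not pass. Binding was not measured, and response elements of other genes can lie outside this window. The full window of the first of the TXNRD1 starts, which no GENCODE exon overlaps, is given because the gene rose. TXN and SRXN1 also rose but are not among the 7 genes with a match. GPX2 and PGD, which hold a match and fell, are given without a full window. The window of the other start lies within exons and is not shown in full. The window given below is chr12:104215529-104215778 on the plus strand.
TXNRD1: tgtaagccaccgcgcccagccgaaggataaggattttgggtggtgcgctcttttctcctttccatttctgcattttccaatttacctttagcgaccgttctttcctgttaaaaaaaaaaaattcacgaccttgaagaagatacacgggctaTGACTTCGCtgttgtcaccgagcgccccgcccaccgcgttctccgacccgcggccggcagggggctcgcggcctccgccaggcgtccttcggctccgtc

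Another 84 genes of the same pathways were listed by general knowledge, with earlier results of these data known, and 71 were tested. Of these 11 rose (15.5%) and 34 fell (47.9%), against 24.6% and 25.8% of all genes, with a median log2 fold change of -0.15. The difference from all genes was not tested. The 13 tested partners and regulators had 4 rises and 4 falls, 30.8% each, against 24.6% and 25.8% of all genes. The rises included small MAF proteins, the DNA-binding partners of NRF2. MAFF rose from 7.63, 8.45 and 9.17 CPM to 22.0, 24.7 and 21.3 CPM (log2 1.43, SE 0.12, adjusted p = 1.45e-12). MAFK rose from 26.0, 26.1 and 27.8 CPM to 46.5, 55.8 and 47.0 CPM (log2 0.91, SE 0.08, adjusted p = 1.69e-11). The third small MAF gene, MAFG, did not pass (log2 0.15, adjusted p = 0.175). NFE2L3, which encodes the NRF2 relative NRF3, rose from 93.5, 81.0 and 83.3 CPM to 181, 180 and 172 CPM (log2 1.05, SE 0.06, adjusted p = 3.12e-18). MAFF, MAFK and NFE2L3 rose by more than NFE2L2 differed. CUL3, the ligase scaffold that works with KEAP1, had a log2 fold change of -0.31 (SE 0.06, adjusted p = 3.26e-05) and the NRF2 antagonist BACH1 one of -0.03 (adjusted p = 0.762). The other falls were OSGIN1 (log2 -0.47, adjusted p = 0.0422), TRIM16 (log2 -0.37, adjusted p = 7.40e-07) and NFE2L1 (log2 -0.17, adjusted p = 0.00277).

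Among 17 other glutathione genes 10 fell (58.8%), none rose and 7 did not pass, against 25.8% lower and 24.6% higher over all genes. Chromosomal surroundings were not set beside the related genes. SLC3A2, the heavy chain that pairs with SLC7A11 and other amino acid transporters, went from 649, 647 and 642 CPM to 297, 304 and 299.9 CPM. It was 2.15-fold lower (log2 -1.10, SE 0.05, adjusted p = 1.30e-21), with libraries of each group nearly equal. Its count ratio to SLC7A11, looked at after the values were seen, was 4.98 ± 0.186 in control and 2.51 ± 0.0893 in knockout libraries (SD, n = 3). The ratio was lower in each knockout library.

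Of 10 other NADPH genes, not all of them sources, 2 rose (20%) and 4 fell (40%), against 24.6% and 25.8% of all genes. The falls included IDH1, which makes NADPH in the cytosol, from 276, 261 and 272 CPM to 189, 175 and 179 CPM (log2 -0.58, SE 0.05, adjusted p = 1.64e-12). They also included NNT, which makes it in mitochondria, from 50.2, 51.2 and 52.8 CPM to 28.0, 27.0 and 26.8 CPM (log2 -0.91, SE 0.08, adjusted p = 1.98e-12).

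Of 19 further carbonyl and drug-handling genes 12 fell and 2 rose. ALDH3A2, which oxidizes fatty aldehydes, went from 209, 216 and 210 CPM to 131, 115 and 115 CPM (log2 -0.82, SE 0.05, adjusted p = 9.94e-16). ALDH1A3, which makes retinoic acid, rose from 1050, 1002 and 1033 CPM to 1938, 1918 and 1910 CPM (log2 0.90, SE 0.04, adjusted p = 2.26e-19). Its relative ALDH1A1, named after its value was seen, fell to 10, 10 and 6 counts from 83, 123 and 77 (log2 -3.15, SE 0.29, adjusted p = 1.07e-11). UGT1A6, a glucuronidating enzyme whose last exons are shared with other UGT1A genes, went from 236, 233 and 224 CPM to 152, 153 and 139.6 CPM (log2 -0.64, SE 0.05, adjusted p = 1.96e-13), and the split of its reads is uncertain. Of 6 thioredoxin genes 1 rose (16.7%) and 1 fell (16.7%). Of 6 heme and iron genes 2 rose (33.3%) and 3 fell (50%), against 24.6% and 25.8% of all genes. TFRC, the receptor that takes up transferrin iron, rose from 1305, 1207 and 1245 CPM to 1898, 1837 and 1862 CPM (log2 0.58, SE 0.04, adjusted p = 1.61e-13), whereas both ferritin chains did not pass.

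**Figure D5:**
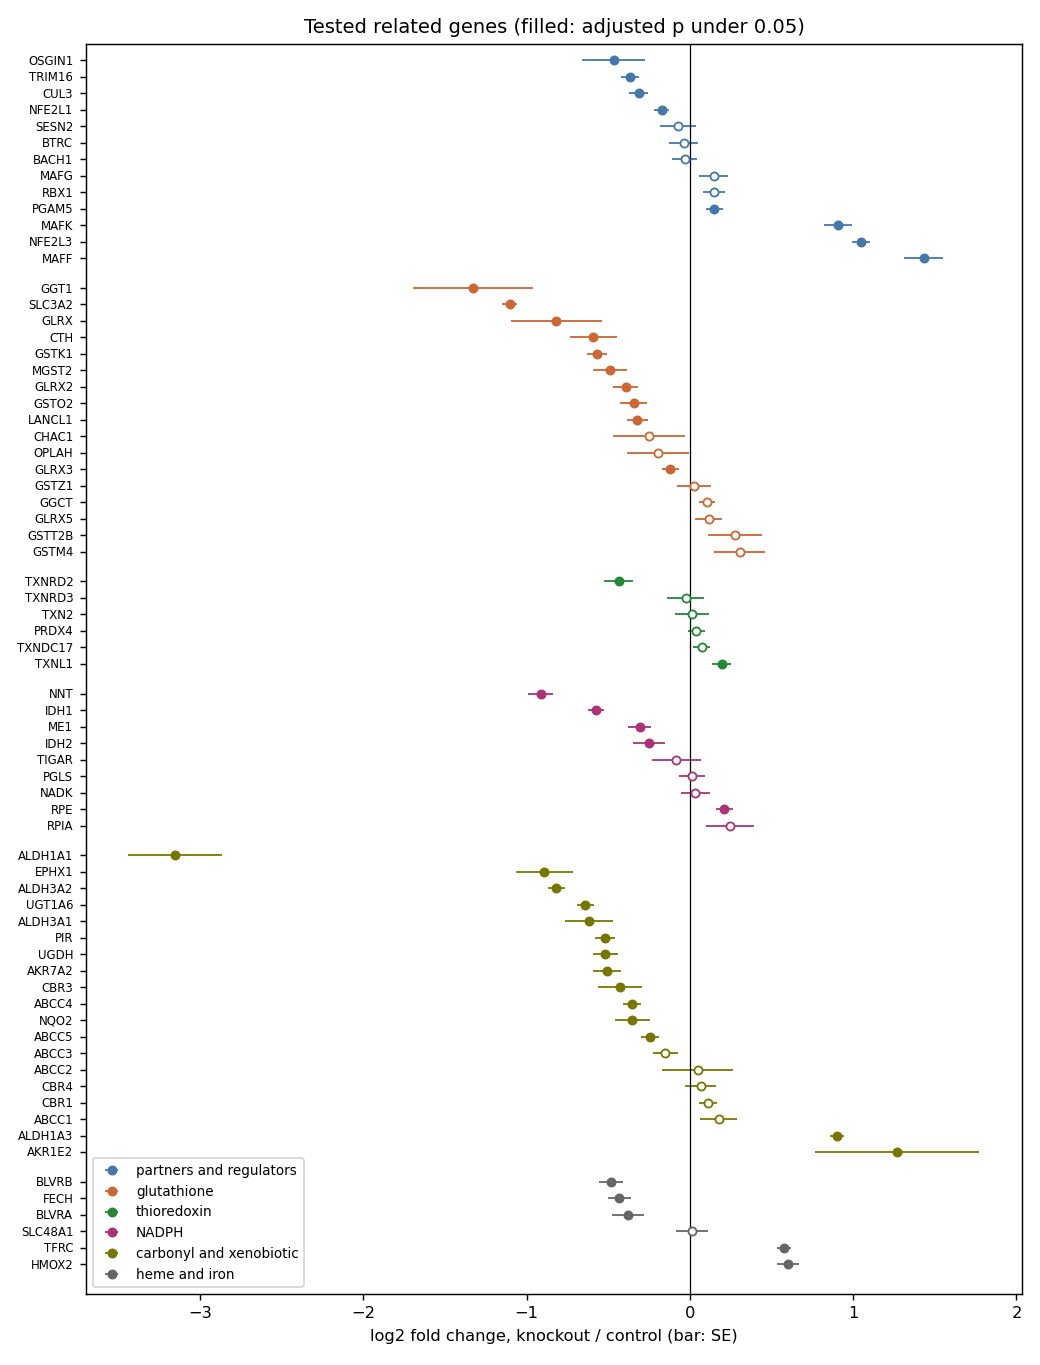
Log2 fold change (knockout over control) with its SE for the tested related genes, 1 of the 71 left out, coloured by role; filled points passed at an adjusted p under 0.05. MAFF, NFE2L3 and MAFK lie at 1.43, 1.05 and 0.91 on the right, and most filled points of the glutathione and the carbonyl and drug-handling groups lie on the left.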

How the data were processed

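The authors deposited raw read counts per gene, 1 column per library, and each of the 6 columns named its sample. RNA went into stranded total-RNA libraries, per the labels' protocols. The submitters' processing notes name GRCh38. Which aligner, counter and strand option were used is not stated, so reads of near-identical or antisense genes may be split. Counts were tested in R 4.3.3 with edgeR 4.0.16: filterByExpr (minimum count 10, minimum total count 15), TMM scaling and the robust quasi-likelihood F test, two-sided, with no block, Benjamini-Hochberg adjusted over all genes tested. Each SE is the log2 fold change divided by the root of its F statistic. In a test on simulated counts of 12184 genes, the test called 52% of 50 genes changed 1.25-fold, 72% of 50 changed 1.5-fold, 90% of those changed 2-fold and 96% of those changed 4-fold, and 11 unchanged genes. All pairs of replicates exceeded sampling noise (chi-square 2.65 to 4.49 per degree of freedom), so each library counted as 1. Alternatives were DESeq2 1.42.0, voom in limma 3.58.1, other scalings and filters, a replicate block and leaving out each library. The genes and lists were chosen with earlier results of these data known. Library values are given for the 3 genes of each role with the smallest adjusted p, for those changed at least 1.5-fold, and for related genes among the 10 with the smallest adjusted p at a mean log2 CPM of at least 2. MAFG, CUL3, BACH1, OSGIN1, TRIM16, NFE2L1, ALDH1A1 and AKR1B15 were named after their values were seen, and TXN, TXNRD1 and AKR1C2 are given by library beyond that rule. Gene positions are from GENCODE release 29, or RefSeq for SOD2. TRIM16L of the related list was not analysed here. Counts cover whole lists, of which 1 tested related gene is not reported here by name.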

Additional observations from a re-analysis of the deposited data

How the results depend on the processing

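Under 14 alternatives, 28 of the 41 tested genes kept their call, 13 crossed the threshold in at least 1 alternative and 0 passed in the opposite direction. The 27 calls became 27 with DESeq2, limma-voom and RLE scaling, 31 with upper-quartile scaling and 32 with TMM factors from genes outside chromosomes 1, 10, 13, 16 and 17. They became 26 without a filter on low counts, 28 with at least 1 CPM in 3 libraries, and 24 to 28 when 1 library was left out. The latter 2 scalings moved the median of all genes by -0.03 and -0.04, and lower calls from 17 to 22 and 23. The count of genes changed at least 1.5-fold was 6, or 5 without knockout replicate 3. The summed AKR1C row ranged from -0.06 to 0.01 and did not pass in any fit. With windows of 2 and 10 Mb, 4 genes again had neighbours at -0.2 or lower, and with the motif core followed by A 6 genes held a match in place of 7, against 2.59% of all starts. The replicate numbers did not pair the libraries (correlation of deviations 0.02, -0.09 and -0.01). With the replicate block 30 of the 41 genes passed, GPX1, GSS and SLC7A11 in addition, and 6425 of all genes in place of 6197. With 3 libraries per group, log2 differences near 0.1 in these abundant genes lie at the limit of what the test calls.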
